A study of Mus musculus with 29 samples.

Results

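DNA methylation was examined across 8 genes that encode transcription factors of T helper cells and group 2 innate lymphoid cells (ILC2s), namely Gata3, Tbx21, Rora, Bcl6, Maf, Batf, Irf4 and Prdm1. Every window of the gene methylation table whose named gene was among these 8 was taken, which gave 242 of the 260686 windows in the table. All 242 had a value in every library and were tested. Rora is a very long gene and held 158 of them, Prdm1 held 24, Gata3 16, Bcl6 12, Maf 11, Batf 8, Tbx21 7 and Irf4 6. The study set windows at 100 CpGs, which here meant a median of 50 CpG sites with a cytosine on each strand. Windows were therefore short where CpGs are dense (from 291 bp) and long where they are sparse (up to 9466 bp).

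The data are whole-genome methyl-sequencing (WGMS) of lung DNA from 29 BALB/c offspring, described in the series as 13-week-old females. Dams had received saline (Sham) or fine airborne particulate matter (PM) into the nose from before mating until weaning, and allergic airway disease (AAD) was then induced in part of the offspring with ovalbumin (OVA), given with alum by injection and later as an aerosol. There were 7 libraries each of Sham, Sham-OVA and PM, and 8 of PM-OVA. Groups without OVA are labelled as PBS and, by the study's methods, inhaled nebulised saline. The methods describe the injections for all offspring, whereas the labels do not say whether animals without OVA received them. The libraries of PM-OVA replicates 7 and 8 carry Rel before the number in their names, a term that the labels do not explain, and whether they are separate animals was not tested. The tissue is labelled Lung (RML) and by the methods was a homogenate of frozen right lower lobe, taken after lung function testing. Whether label and methods mean the same lobe was not checked. The labels tie no library to a litter or dam, so the p-values measure the spread between these libraries. The table holds a percentage of methylated cytosines per window (%DNAm) without counts or coverage. Sequencing depth is thus unknown for any single value here.

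The libraries were alike in extent, with values in 258952 to 260135 windows and a mean of 67.8 to 70.2% over them. Pearson's r across windows was 0.992 to 0.997 between libraries of a group and 0.983 to 0.997 between groups. Sham replicate 1 stood apart from its label, since it had values in 1224 of the 1230 windows on the Y chromosome, against 29 to 46 in the other libraries. Without it, the member counts given below changed little, to 2 differentially methylated regions (DMRs, defined below) and 109 windows past the test for OVA in Sham offspring, and 5 and 143 in PM offspring.

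CD4 T cells settle into fates that are each held by a small set of transcription factors. GATA3 drives the T helper 2 programme and ILC2s, the cells whose cytokines dominate OVA-induced AAD, whereas T-bet (Tbx21) drives interferon-producing T helper 1 cells and restrains GATA3. RORα (Rora) is needed for ILC2 development, c-Maf (Maf) activates cytokine genes such as Il4, Il10 and Il21, BCL6 specifies follicular helper T cells, and Blimp-1 (Prdm1) opposes BCL6 and drives terminal effector and plasma cell differentiation. BATF and IRF4 bind DNA together at composite elements after antigen receptor signalling. Methylation of CpGs at a promoter or enhancer usually accompanies an inactive state, and active CpG-dense promoters are almost free of it.

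A set of 5 stretches of sequence was taken from windows whose methylation moved. Methylation was measured per window, so these letters do not place the change within it. They were read from the GRCm38 reference, which is of another mouse strain, on the plus strand from 5′ to 3′, and capitals mark CpG sites. For windows called as DMRs, the stretch shown is the 300 bases outside exons with the most CpGs. That of the Prdm1 window that gained methylation lies at chr10:44476395-44476694 in an intron of the long Prdm1 transcript. The stretches of Batf lie at chr12:85686984-85687283, just inside the gene, and at chr12:85688522-85688821 in the next window. The Irf4 stretches are the 250 bases before the RefSeq start (chr13:30748983-30749232, GRCm38.p6) and an intronic stretch at chr13:30755256-30755555.
Prdm1 intron: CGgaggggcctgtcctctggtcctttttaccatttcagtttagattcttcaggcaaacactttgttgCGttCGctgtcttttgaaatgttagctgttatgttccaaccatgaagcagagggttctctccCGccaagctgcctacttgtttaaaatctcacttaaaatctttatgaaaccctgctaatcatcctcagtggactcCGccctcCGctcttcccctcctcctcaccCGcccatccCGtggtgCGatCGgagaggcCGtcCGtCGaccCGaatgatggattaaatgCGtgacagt
Batf start: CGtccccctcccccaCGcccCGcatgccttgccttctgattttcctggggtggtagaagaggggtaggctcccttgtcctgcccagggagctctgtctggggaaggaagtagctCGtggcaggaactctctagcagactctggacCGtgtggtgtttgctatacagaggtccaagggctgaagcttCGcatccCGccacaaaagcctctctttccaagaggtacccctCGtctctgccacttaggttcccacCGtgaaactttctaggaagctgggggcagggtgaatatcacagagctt
Batf next window: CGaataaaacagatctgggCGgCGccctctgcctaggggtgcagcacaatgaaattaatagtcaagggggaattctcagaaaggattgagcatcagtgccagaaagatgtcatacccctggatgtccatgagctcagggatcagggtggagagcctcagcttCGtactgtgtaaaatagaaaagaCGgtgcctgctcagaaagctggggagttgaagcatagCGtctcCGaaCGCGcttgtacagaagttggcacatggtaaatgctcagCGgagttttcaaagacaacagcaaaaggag
Irf4 upstream: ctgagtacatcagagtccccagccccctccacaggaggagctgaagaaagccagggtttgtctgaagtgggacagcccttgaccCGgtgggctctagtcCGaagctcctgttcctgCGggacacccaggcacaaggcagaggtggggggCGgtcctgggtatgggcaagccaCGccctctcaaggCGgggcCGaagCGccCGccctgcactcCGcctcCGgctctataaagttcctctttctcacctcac
Irf4 intron: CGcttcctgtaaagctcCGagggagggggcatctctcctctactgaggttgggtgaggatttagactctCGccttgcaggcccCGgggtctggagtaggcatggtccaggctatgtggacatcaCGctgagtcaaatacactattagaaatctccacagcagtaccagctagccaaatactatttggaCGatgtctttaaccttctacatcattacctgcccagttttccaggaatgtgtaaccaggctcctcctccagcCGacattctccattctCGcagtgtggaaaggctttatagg

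These stretches held 15, 9, 10, 11 and 8 CpGs in the order shown. The median over the CpG-densest 300 bases of all windows was 9 (quartiles 7 and 12). RefSeq promoter sequences (250 bases before and 50 after the start) were matched for 7 of the 8 genes. Their CpG counts split the genes, with 20 to 31 CpGs at the starts of Gata3, Tbx21, Rora, Prdm1 and the distal Bcl6 start, 14 at another Bcl6 start, 11 at Irf4 and 9 at Batf, against a median of 7 over 32851 promoters. On either strand, the AP-1 letters TGANTCA occurred in the Irf4 intronic stretch and in the Prdm1 promoter, and in 7.27% of all 300-base stretches and 7.81% of promoters. The GATA letters AGATAA occurred in the Batf promoter alone among the 7 genes, and in 11.5% of all stretches and 11.2% of promoters. The stretches of the other DMR windows are not printed, and of these the one at the 3′ end of Prdm1 held 1 AP-1 match and 1 IRF match and the one further into Irf4 held 1 GATA match. None of the 5 printed stretches held the T-box letters AGGTGTGA or the IRF letters GAAANTGAA, which occurred in 1.19% and 2.03% of all stretches, and in 1.28% and 2.21% of promoters. Such matches describe the letters and do not identify a bound site.

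Windows were tested with limma on the log2 ratio of methylated to unmethylated percentages over all 259167 windows that had at least 3 values per group, with Benjamini-Hochberg adjustment. A DMR had an adjusted p under 0.05 and group means at least 10 percentage points apart. OVA moved far more of the member windows down than up. In Sham offspring, 95 of 242 windows fell (39.3%, against 22.3% of all windows) and 18 rose (7.44%, against 13.3%). In PM offspring, 130 fell (53.7%, against 34.8% of all windows) and 14 rose (5.79%, against 9.26%). Their median difference was -1.24 percentage points in Sham and -2.32 in PM offspring, against -0.414 and -1.03 over all windows. DMRs were few, with 2 member windows in Sham (0.775% of all windows were DMRs) and 5 in PM offspring (0.584% of all windows), with 1 rise in each. Several lay near the minimum of 10 points, so that the count in Sham was 4 without Sham replicate 2, and that in PM offspring 3 without PM-OVA replicate 7, PM replicate 5 or PM replicate 7 and 2 without PM-OVA replicate 8 or PM replicate 6. With PM-OVA replicates 7 and 8 both left out, or with the libraries centred, the count in PM offspring was 2. Centring gave 3 in Sham, where a rising Rora window reached 10.3 points. In PM offspring it put the Batf start, the Irf4 window 11.7 kb past the start and the 3′ Prdm1 window below 10 points (-9.14, -9.03 and -9.1). Windows of a gene share their cells and often their regulation, and are not replicates of each other.

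Most of the falls lay in Rora. Without it, 22 of 84 windows fell (26.2%, against 22.3% of all windows) and 11 rose in Sham, and 26 fell (31.0%, against 34.8%) and 9 rose in PM offspring. Their median differences of -0.23 and -0.51 points were smaller than those of all windows. In these shares and medians the other 7 genes together lay near the whole table. Before centring, however, they held all the member DMRs. These were 2 of their 84 windows in Sham and 5 in PM offspring, against 0.775% and 0.584% of all windows. Centring each library on its overall level, which brings falls to 49.8% and 48.4% of the calls over all windows, left 86 falls and 27 rises among the members in Sham and 100 falls and 32 rises in PM offspring (84.1% of calls fell before and 76.1% after centring in Sham, 90.3% and 75.8% in PM). After centring, the members without Rora had 19 falls and 17 rises in Sham and 20 falls and 21 rises in PM offspring. Under that scaling Irf4 still had 4 and 5 falls with 0 rises, and Batf 5 and 5 falls with 1 rise in Sham. Gata3 turned from 1 rise and 5 falls to 4 rises and 3 falls in PM offspring, and had 3 and 3 in Sham. Prdm1 turned from 4 rises and 5 falls to 6 and 4 in PM offspring, and had 5 and 5 in Sham. Directions in Bcl6, Maf and Tbx21 also depended more on the scaling, with 4, 3 and 1 rises against 0, 0 and 2 falls in Sham and 4, 4 and 3 rises against 1 fall each in PM offspring. Sham and PM offspring share no library. The sign of the OVA difference was the same in both for 212 of 242 windows (87.6%, against 81.8% of all windows). The excess lay in Rora (146 of 158, 92.4%), and the members without Rora were at 66 of 84 (78.6%). In all, 100 windows passed the test in both, 75 of them in Rora and 25 outside it, against 70743 of 259167 over all windows.

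**Figure D1:**
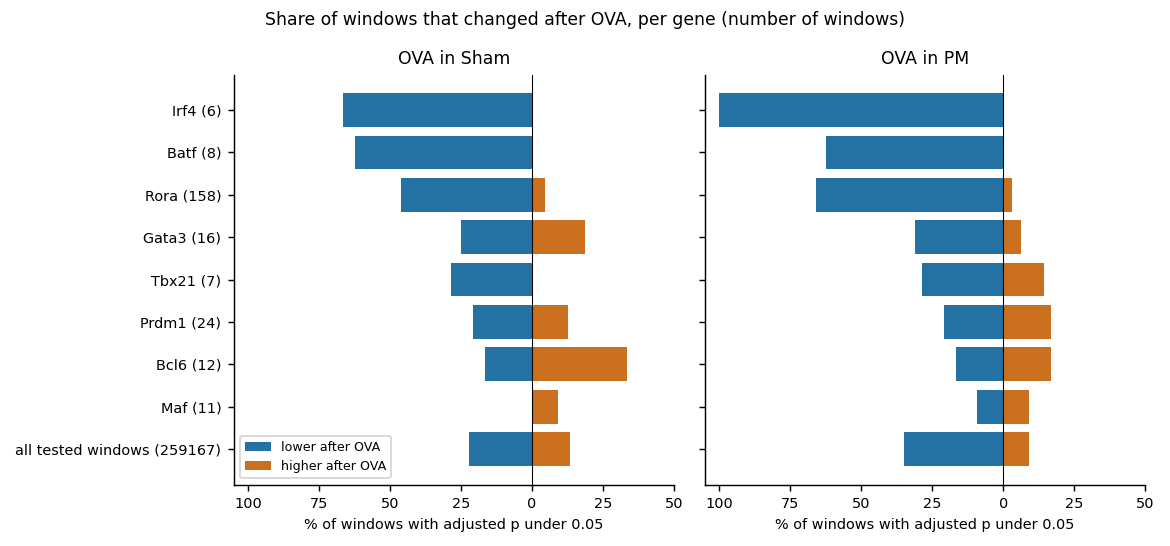
Share of the windows of each gene with a limma adjusted p under 0.05, as bars to the left for lower and to the right for higher methylation after OVA, in Sham (left panel) and PM offspring (right panel), with the number of windows beside each name. Irf4, Batf and Rora reach 66.7, 62.5 and 46.2% lower in Sham, against 22.3% for all tested windows, and Maf, Bcl6 and Prdm1 (0, 16.7 and 20.8%) lie below it.

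The genes differed widely in their mean level over all windows. Values after ± are SDs over the libraries of a group (n = 7, and n = 8 in PM-OVA). In Sham lungs the gene mean was highest for Rora (75.9% ± 0.303), followed by Batf (63.6% ± 0.745), Prdm1 (62.0% ± 0.244), Irf4 (53.8% ± 0.597), Maf (46.9% ± 0.626), Tbx21 (42.7% ± 0.434), Bcl6 (37.7% ± 0.338) and Gata3 (31.6% ± 0.61), and the library ranges of neighbours in this order did not overlap. In PM the ranges of Batf and Prdm1 overlapped. After OVA the mean of Batf lay below that of Prdm1 with overlapping ranges, and Irf4 came down to the level of Maf. In Sham-OVA, Irf4 ranged from 46.9 to 51.0% and Maf from 46.1 to 48.2%. In PM-OVA, Irf4 ranged from 45.4 to 48.2% and Maf from 45.9 to 47.2%.

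**Figure D2:**
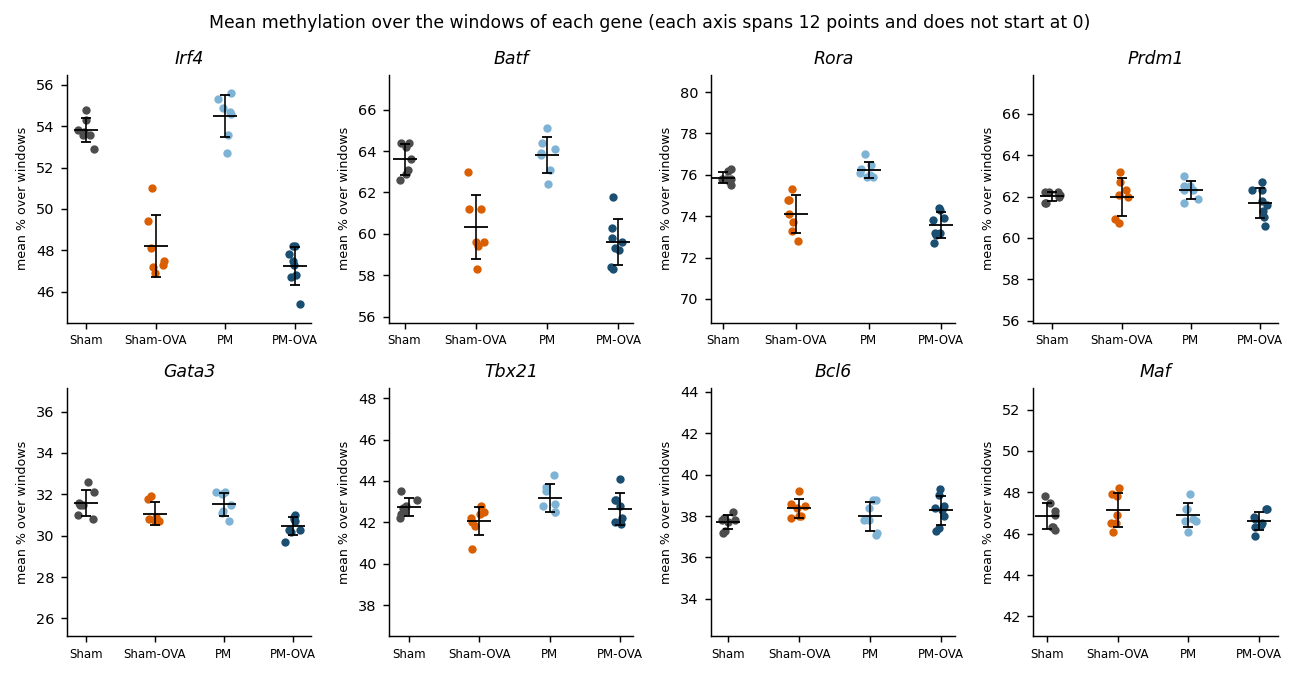
Mean %DNAm over the windows of each gene in each library (points), with the mean and SD of each group (bars, n = 7, 7, 7 and 8). Each vertical axis spans 12 percentage points and does not start at 0. The Irf4 points without OVA (52.7 to 55.6%) all lie above those with OVA (45.4 to 51.0%), as they do within each maternal group for Rora, whereas the Maf, Bcl6 and Tbx21 points overlap.

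Irf4 (ENSMUSG00000021356, GRCm38 chromosome 13 from 30749226 to 30766976, plus strand), which is induced by antigen receptor signalling in lymphocytes, lost methylation across nearly its whole length. All 6 windows were lower after OVA in PM offspring (against 34.8% of all windows), and 5 with centred libraries (83.3%, against 20.4%). In Sham offspring 4 of 6 were lower (66.7%, against 22.3% of all windows). The gene mean was 52.9, 53.7 and 54.8% (lowest, median and highest library) in Sham and 46.9, 47.5 and 51.0% in Sham-OVA, and the groups did not overlap. In PM it was 52.7, 54.7 and 55.6%, and in PM-OVA 45.4, 47.4 and 48.2%, again without overlap.

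The Irf4 window over the promoter (30747218 to 30749311, of which 2081 bp lie up to 2000 bp upstream of an annotated start and 75 bp are untranslated exon) was intermediate in level. It held 35.9, 37.7 and 40.6% in Sham (lowest, median, highest) and 27.0, 29.5 and 35.4% in Sham-OVA, so that its mean fell by 7.81 points (limma log2 ratio -0.49, SE 0.07; adjusted p = 8.07e-06). In PM it held 36.4, 38.9 and 39.9% and in PM-OVA 27.6, 30.1 and 34.3%, so that its mean fell by 7.94 points (limma adjusted p = 2.93e-06). No library with OVA reached the lowest library without it. The 250 bases printed above as Irf4 upstream lie at the downstream end of this window. Directly inside the gene, a CpG-dense window 0.826 kb past the start, chosen after its values were seen, was nearly unmethylated, at 5.03% ± 0.564 in Sham and 4.62% ± 0.687 in Sham-OVA, a difference that did not pass the test (limma adjusted p = 0.347). In PM offspring it fell from 4.76% ± 0.709 to 3.89% ± 0.53 (limma adjusted p = 0.0236), a call that centring of the libraries ended, with a difference of 0.117 points.

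A window 3.5 kb past the start, chosen after its values were seen, fell without overlap from 53.8 to 45.6% in Sham and from 54.3 to 44.7% in PM offspring (limma adjusted p = 1.65e-07 and 6.31e-09). Further into Irf4 lay the 2 windows called as DMRs. The first of them (30755007 to 30758565, centred 7.56 kb past the start, intronic with 462 exonic bp) held 74.7, 78.9 and 80.5% in PM (lowest, median, highest) and 62.5, 66.8 and 69.4% in PM-OVA. It fell by 11.6 points (limma log2 ratio -0.83, SE 0.06; adjusted p = 5.73e-10), with every PM-OVA library under the PM mean. In Sham it went from 75.5, 76.9 and 78.8% to 68.2, 70.2 and 71.6%, so that its mean fell by 7.16 points (limma adjusted p = 9.7e-07), under the DMR minimum. The groups were apart in both kinds of offspring. The interaction of -4.46 points had a limma adjusted p of 0.554 (unadjusted p = 0.00216), so a larger fall in PM offspring was not shown. The other DMR (30758570 to 30763240, centred 11.7 kb past the start, with 113 exonic bp) held 75.9, 77.4 and 81.4% in PM and 66.1, 68.2 and 70.6% in PM-OVA, so that its mean fell by 10 points (limma adjusted p = 1.23e-07). Sham libraries held 76.3, 77.0 and 80.7% and Sham-OVA libraries 66.0, 67.8 and 75.6%, so that its mean fell by 8.38 points (limma adjusted p = 4.01e-06). The difference of this window was in PM offspring at the DMR minimum, and leaving out single libraries took it below.

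Batf (ENSMUSG00000034266, chromosome 12 from 85686669 to 85709087, plus strand), the AP-1 family partner of IRF4, showed its largest falls at the 5′ end. Of its 8 windows, 5 fell in Sham and 5 in PM offspring (62.5% each, against 22.3% and 34.8% of all windows) and 0 rose. Its gene mean went from 62.6, 63.6 and 64.4% (lowest, median, highest) in Sham to 58.3, 59.6 and 63.0% in Sham-OVA, and 1 Sham-OVA library, replicate 7, reached into the Sham range. In PM the gene mean was 62.4, 63.9 and 65.1%, and in PM-OVA 58.3, 59.5 and 61.8%, without overlap.

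The window that holds the Batf start (85685434 to 85687596, with 305 exonic bp, 242 bp of them untranslated, and 1540 bp of promoter) held 39.5, 41.2 and 46.0% in Sham and 32.0, 32.3 and 39.4% in Sham-OVA. It fell by 8.46 points (limma adjusted p = 4.85e-05). All but 1 Sham-OVA library lay between 32.0 and 33.4%, and that library, replicate 7, was just under the lowest Sham library. In PM the window held 35.7, 41.3 and 45.3% and in PM-OVA 27.8, 30.9 and 36.1%, so that its mean fell by 10.1 points and was called as a DMR (limma log2 ratio -0.62, SE 0.08; adjusted p = 1.63e-06), although the highest PM-OVA library exceeded the lowest PM library. The interaction was -1.66 points (limma adjusted p = 0.854). The next window (85687693 to 85690907, centred 2.63 kb past the start, with 556 exonic bp) also holds an annotated start but was highly methylated. It held 78.8, 81.6 and 83.3% in Sham and 67.2, 69.7 and 75.3% in Sham-OVA, so that its mean fell by 11 points and was called as a DMR (limma log2 ratio -0.85, SE 0.08; adjusted p = 1.1e-08). In PM it went from 79.0, 80.1 and 82.9% to 67.3, 71.7 and 73.8%, so that its mean fell by 9.05 points (limma adjusted p = 6.31e-08). Libraries with and without OVA did not overlap in either case. A window 17.5 kb past the start, chosen after its values were seen, also fell without overlap, with differences of -5.75 points for Sham and -5.83 for PM offspring (limma adjusted p = 1.07e-05 and 4e-06). So did the window at the 3′ end, 24.1 kb past the start, which went from 83.6 to 79.9% for Sham and from 84.5 to 80.4% for PM offspring (limma adjusted p = 0.000589 and 4.62e-05), also chosen after its values were seen. The remaining fall, chosen likewise, was in the window 6.44 kb past the start, with differences of -3.46 and -3.93 points (limma adjusted p = 0.0123 and 0.00337).

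**Figure D3:**
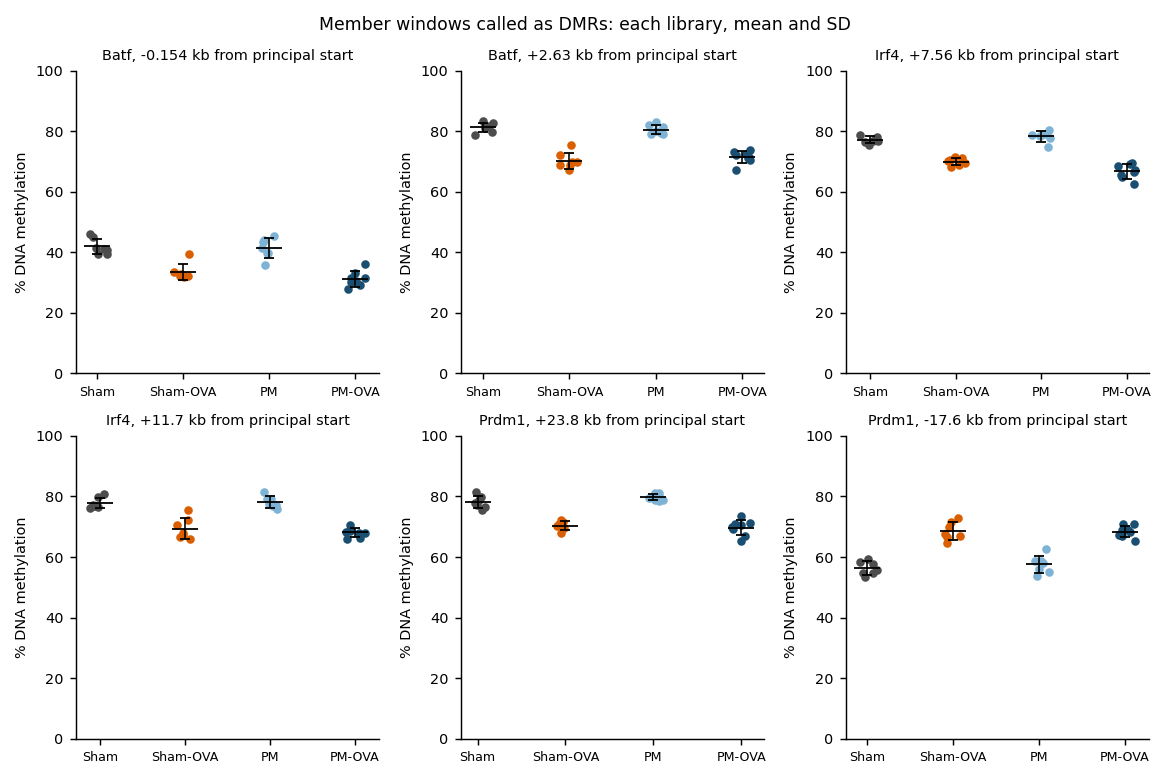
%DNAm of each library (points) in the 6 member windows called as DMRs in Sham or PM offspring, with the mean and SD of each group (n = 7, 7, 7 and 8). The axis of each panel runs from 0 to 100%, and the title gives the distance of the window midpoint from the principal start site. Prdm1 at -17.6 kb is the only panel where the OVA groups (68.6 and 68.4%) lie above those without OVA (56.4 and 57.6%).

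Prdm1 (ENSMUSG00000038151, chromosome 10 from 44437177 to 44528501, minus strand) moved in both directions at separate places. Its gene mean stayed at 62.0% ± 0.244 in Sham and 62.0% ± 0.906 in Sham-OVA, and was 62.3% ± 0.425 in PM and 61.7% ± 0.704 in PM-OVA. Of 24 windows, 3 rose (12.5%, against 13.3% of all windows) and 5 fell (20.8%, against 22.3%) in Sham, which is near the shares over all windows. In PM offspring 4 rose (16.7%, against 9.26%) and 5 fell (20.8%, against 34.8%).

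The rise lay in an intron of the long transcript, at -17.6 kb from the principal start (44474585 to 44477944, no exonic base). The window held 53.4, 55.7 and 59.5% in Sham (lowest, median, highest) and 64.7, 67.5 and 73.0% in Sham-OVA, so its mean rose by 12.2 points (limma log2 ratio 0.74, SE 0.08; adjusted p = 1.17e-07). In PM it held 53.9, 58.0 and 62.6% and in PM-OVA 65.2, 68.5 and 70.9%, so its mean rose by 10.8 points (limma log2 ratio 0.66, SE 0.08; adjusted p = 2.6e-07). Every library with OVA was above every library without it, and of the 242 windows this was the 1 called as a DMR in both kinds of offspring. It is lower than the windows beside it in the groups without OVA (71.5 and 72.6% in Sham) and close to their level after OVA. The fall lay at the other end, in a window that covers the last 323 bp of the gene, all of it 3′ untranslated, and otherwise sequence beyond it (44432214 to 44437499). That window held 75.7, 77.9 and 81.4% in Sham and 67.8, 70.1 and 72.4% in Sham-OVA, so that its mean fell by 7.89 points (limma adjusted p = 7.82e-07). The PM libraries held 78.6, 79.4 and 81.3% and the PM-OVA libraries 65.4, 70.3 and 73.7%, so that the mean fell by 10.1 points (limma adjusted p = 7.6e-09), and neither pair of groups overlapped. At the principal start (44457883 to 44458762), methylation was 1.46% ± 1.01 in Sham and 0.691% ± 0.397 in Sham-OVA (limma adjusted p = 0.0969, and 0.0264 to 0.0487 without Sham replicate 1, Sham replicate 3 or Sham-OVA replicate 5), and 1.02% ± 0.907 in PM and 0.915% ± 0.378 in PM-OVA (limma adjusted p = 0.963). The distal start of the long transcript (44527710 to 44529197) fell in Sham from 15.5% ± 1.18 to 12.2% ± 1.17 (limma adjusted p = 0.013). In PM offspring the corresponding fall of 2.1 points had a limma adjusted p of 0.0583, and leaving out PM-OVA replicate 3, 6 or 8 or PM replicate 2 or 5 brought it under the threshold (limma adjusted p from 0.0133 to 0.0441).

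Gata3 (ENSMUSG00000015619, chromosome 2 from 9857078 to 9890034, minus strand), the defining factor of T helper 2 cells and ILC2s, had 0 DMRs but a clear fall within its body. Of its 16 windows, 4 fell (25%, against 22.3% of all windows) and 3 rose (18.8%, against 13.3%) in Sham. In PM offspring 5 fell (31.2%, against 34.8%) and 1 rose (6.25%, against 9.26%), so that its share of falls lay near that of all windows in both. In PM offspring centring of the libraries gave 3 falls and 4 rises. The window with the smallest p (9868131 to 9871972, centred 8.55 kb past the principal start, with 146 exonic bp of coding sequence) held 76.6, 78.7 and 79.9% in Sham (lowest, median, highest) and 66.8, 68.2 and 70.4% in Sham-OVA. It fell by 9.73 points (limma log2 ratio -0.7, SE 0.06; adjusted p = 3.23e-09). In PM it held 73.9, 76.9 and 78.8% and in PM-OVA 67.4, 68.7 and 70.9%, so that its mean fell by 7.95 points (limma adjusted p = 2.03e-08). The groups did not overlap, and the difference in Sham fell just short of the DMR minimum of 10 points. The 2 windows nearest the 3′ end of Gata3 also fell, with differences of -2.51 and -4.85 points for Sham and -3.65 and -5.02 for PM offspring (limma adjusted p of 0.01 and 5.56e-05, then 9.19e-05 and 1.89e-05). These, and the upstream window described next, were chosen after their values were seen.

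Around and upstream of its principal start, Gata3 lies in a broad stretch of low methylation, and 7 of its 16 windows were under 10% in Sham. The window over the principal start (9877620 to 9878799) held 1.76% ± 1.66 in Sham, 0.86% ± 0.407 in Sham-OVA, 1.16% ± 1.06 in PM and 0.98% ± 0.465 in PM-OVA. Neither OVA difference passed the test (limma adjusted p = 0.211 and 0.87). The window over the distal start (9889638 to 9891751) held 5.97% ± 1.15, 7.1% ± 0.903, 6.58% ± 1.24 and 6.09% ± 1.28 in the same order (limma adjusted p = 0.133 and 0.5). Between these starts, a window at -7.13 kb from the principal start that also overlaps the gene 9230102O04Rik rose from 29 to 32.9% in Sham and from 28.9 to 32.5% in PM offspring (limma adjusted p = 0.000825 and 0.00112). Several of these upstream windows overlap non-coding genes, and the table names Gata3 alone for them.

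Tbx21 (ENSMUSG00000001444, chromosome 11 from 97098071 to 97115331, minus strand), the opposing T helper 1 factor, had 2 falls (28.6%, against 22.3% of all windows) and 0 rises among 7 windows in Sham, and 2 falls (28.6%, against 34.8%) and 1 rise (14.3%, against 9.26%) in PM offspring. Its gene means overlapped between groups with and without OVA, at 42.2, 42.7 and 43.5% in Sham (lowest, median, highest) and 40.7, 42.2 and 42.8% in Sham-OVA. The intronic window with the smallest p (97108693 to 97112910) fell from 81.9% ± 1.03 to 79.1% ± 2.02 in Sham (limma adjusted p = 0.00904) and from 82.7% ± 0.869 to 79.4% ± 1.96 in PM offspring (limma adjusted p = 0.00117), with overlapping libraries. The rise lay in the window at the 3′ end, chosen after its values were seen, which went from 38.4, 40.8 and 41.3% in PM (lowest, median, highest) to 42.0, 44.5 and 45.5% in PM-OVA, without overlap (a difference of 4.07 points, limma adjusted p = 0.00173). In Sham its difference of 2.41 points did not pass the test (limma adjusted p = 0.0686). The window at the start (97115129 to 97115968) stayed between 0.616 and 3.98% in all libraries, and its OVA differences had limma adjusted p of 0.378 in Sham and 0.109 in PM offspring. The difference in PM offspring passed without Sham replicate 7 (limma adjusted p = 0.0439) and, at 1.58 points, with centred libraries (limma adjusted p = 0.000604).

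Maf (ENSMUSG00000055435, chromosome 8 from 115682942 to 115707794, minus strand) had few calls, with 1 of 11 windows higher in Sham (9.09%, against 13.3% of all windows), and 1 higher and 1 lower in PM offspring (9.09% each, against 9.26% and 34.8%). That lower window without exonic bases, 16.6 kb past the start (115689406 to 115693079), held 86.3, 88.5 and 90.8% in Sham (lowest, median, highest) and 86.0, 88.3 and 91.1% in Sham-OVA. The difference of -0.163 points did not pass the test (limma adjusted p = 0.88). In PM it held 87.5, 90.1 and 91.5% and in PM-OVA 84.6, 85.4 and 87.9%, so that its mean fell by 3.95 points (limma adjusted p = 8.28e-05), with overlapping libraries. The start of Maf (115707292 to 115708087) had a median of 0.0455% in Sham and 0.245% in Sham-OVA (limma adjusted p = 0.389), and of 0.0909% in PM and 0.22% in PM-OVA (limma adjusted p = 0.6).

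Bcl6 (ENSMUSG00000022508, chromosome 16 from 23965052 to 23988852, minus strand), the follicular helper factor, had 4 rises (33.3%, against 13.3% of all windows) and 2 falls (16.7%, against 22.3%) among 12 windows in Sham. In PM offspring it had 2 rises and 2 falls (16.7% each, against 9.26% and 34.8%). Its intronic window with the smallest p, 8.26 kb past the start (23979685 to 23981501), rose from 16.5, 18.5 and 20.4% (lowest, median, highest) in Sham to 18.7, 23.6 and 25.6% in Sham-OVA, by 3.9 points (limma adjusted p = 0.0139). Among PM offspring it rose from 16.9, 19.1 and 23.2% to 19.2, 24.3 and 29%, by 5.33 points (limma adjusted p = 0.000798). The libraries overlapped in both. The window at the Bcl6 start (23988542 to 23988984) rose in Sham from 0.34% ± 0.477 to 1.22% ± 0.491 (limma adjusted p = 0.00343) and was 0.875% ± 0.569 in PM and 0.718% ± 0.416 in PM-OVA (limma adjusted p = 0.662). These differences are below 1 point, the sign in PM offspring turned with centred libraries (a rise of 0.72 points, limma adjusted p = 0.0325), and the interaction did not pass the test (limma adjusted p = 0.556).

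**Figure D4:**
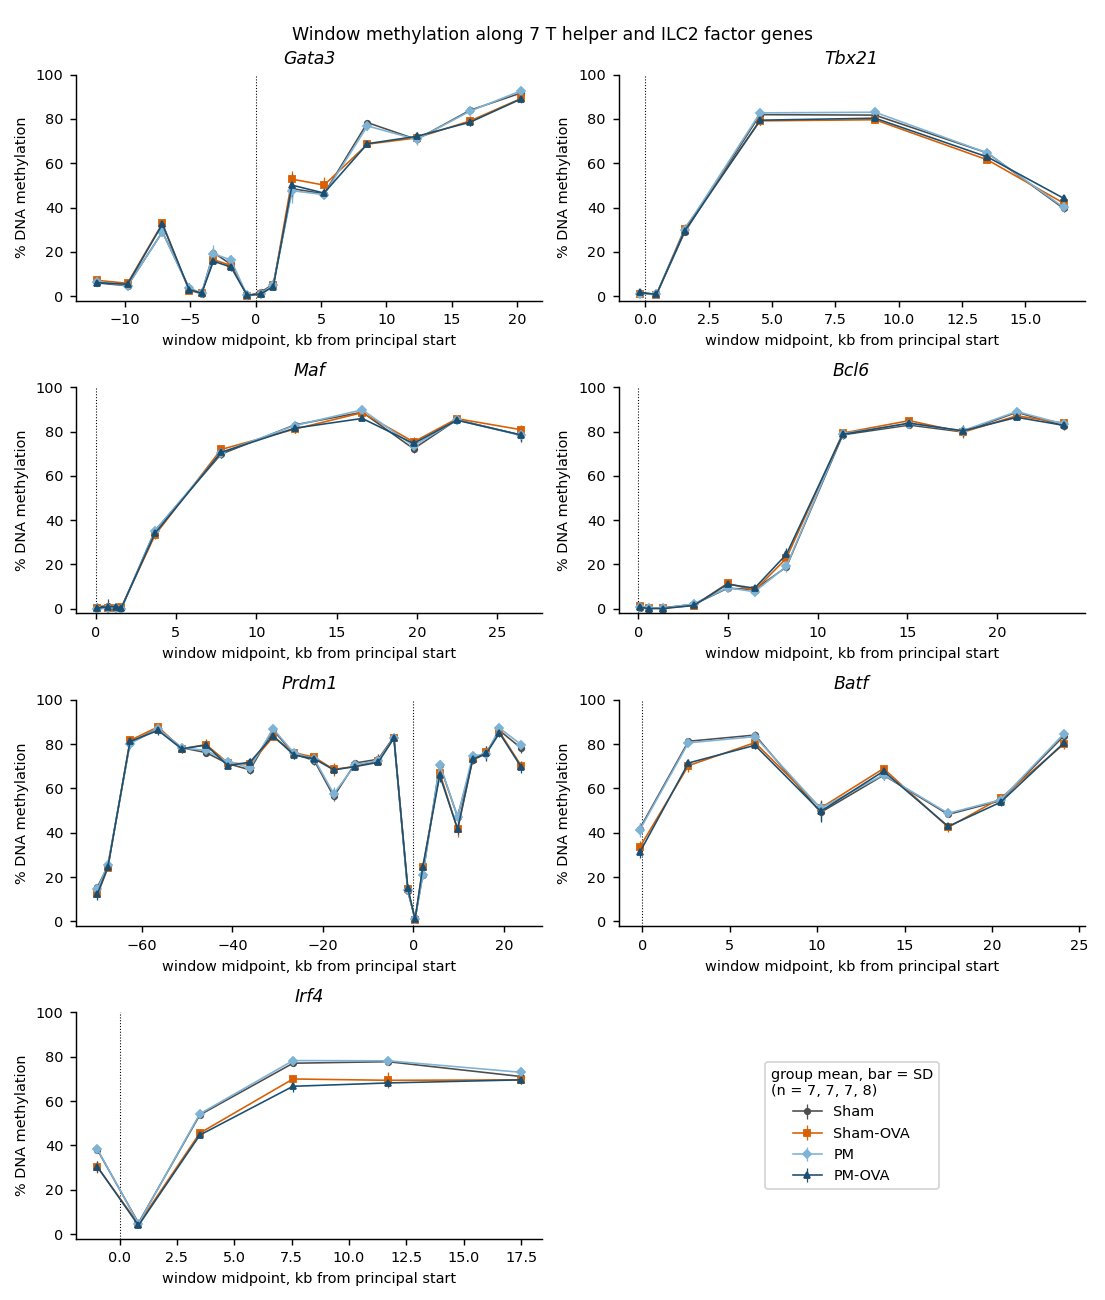
Group mean %DNAm with SD (bars, n = 7, 7, 7 and 8) of every window of the 7 genes other than Rora, against the distance of the window midpoint from the principal start site (dotted line) in kb, with positive distances in the direction of transcription. The OVA groups lie below the others along Irf4, by less than 1 point at 0.826 kb, and at the 5′ end of Batf, while the curves of Maf and Tbx21 nearly coincide.

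Rora (ENSMUSG00000032238, chromosome 9 from 68653786 to 69388246, plus strand), the nuclear receptor needed for ILC2s and also expressed outside lymphocytes, lost a little methylation along its 734461 bp. In Sham offspring 73 of 158 windows fell (46.2%, against 22.3% of all windows) and 7 rose, and in PM offspring 104 fell (65.8%, against 34.8%) and 5 rose. The gene mean went from 75.5, 75.8 and 76.3% in Sham (lowest, median, highest) to 72.8, 74.1 and 75.3% in Sham-OVA. It went from 75.9, 76.1 and 77.0% in PM to 72.7, 73.5 and 74.4% in PM-OVA. Neither pair of groups overlapped, whereas the mean over all windows overlapped in both. The median window difference was -1.96 points in Sham and -2.74 in PM offspring, and after centring of the libraries -1.56 and -1.76.

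The falls were spread along the gene. Dividing the windows into 5 successive parts from the 5′ end gave 16, 15, 16, 16 and 10 falls in Sham, and 24, 23, 21, 20 and 16 in PM offspring, out of 31 or 32 windows each. In all, 70 windows fell and 5 rose in both kinds of offspring, and 0 moved in opposite directions by the test in both. The longest run of neighbouring windows that fell in both was 5. Among the 134 Rora windows above 70% in Sham, 52.2% fell in Sham and 70.9% in PM offspring, against 27.3% and 42.6% of all windows above 70% in the same range of levels. With the libraries centred, 42.4% of all Rora windows fell in Sham and 50.6% in PM offspring, against 18.4% and 20.4% of all windows.

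The Rora window with the smallest p (68866909 to 68872002, intronic, 216 kb into the gene) held 86.1, 87.1 and 89.1% in Sham (lowest, median, highest) and 78.3, 81.5 and 83.1% in Sham-OVA, so that its mean fell by 5.85 points (limma log2 ratio -0.61, SE 0.07; adjusted p = 5.85e-07). In PM it held 86.0, 87.2 and 88.0% and in PM-OVA 76.6, 80.6 and 82.8%, so that its mean fell by 6.73 points (limma adjusted p = 4.43e-08), and the groups did not overlap. The windows described in the rest of this paragraph were chosen after their values were seen. The window with the largest fall in Sham, an intronic one 379 kb into the gene (69030813 to 69035749), had differences of -9.12 points for Sham and -8.74 for PM offspring (limma adjusted p = 1.46e-06 and 1.04e-06). Against the general direction, an intronic window 40.0 kb into the gene (68691420 to 68696250) rose by 7.74 points from 58.6% in Sham and by 6.77 points from 60.4% in PM offspring (limma adjusted p = 0.000207 and 0.000397). A window near the 3′ end that lies wholly in the last exon and its untranslated region (69383168 to 69387965) rose from 65.5% ± 2.17 to 75.4% ± 3.38 in Sham, by 9.9 points (limma adjusted p = 6.21e-06), without overlap, and by 10.3 points, as a DMR, with centred libraries. In PM offspring it rose from 68.9% ± 2.7 to 73.6% ± 2.56, by 4.71 points (limma adjusted p = 0.00729), with overlap. Its interaction of -5.19 points did not pass the test (limma adjusted p = 0.616).

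Of the 4 Rora windows that hold an annotated start, the distal and the principal one were almost unmethylated. The other starts, whose windows were chosen after their values were seen, lay at 11.8% in Sham, 2.18 kb into the gene, and at 82.6%, 542 kb into it. The latter fell to 78.9% in Sham-OVA and from 83.6 to 78.9% among PM offspring (limma adjusted p = 0.000904 and 2.12e-05). The distal start (68653683 to 68654111) went from 0.473% ± 0.424 in Sham to 0.942% ± 0.302 in Sham-OVA (limma adjusted p = 0.0366) and from 0.47% ± 0.404 in PM to 1.25% ± 0.409 in PM-OVA (limma adjusted p = 0.00179). The call in Sham was lost with the untransformed percentages (limma adjusted p = 0.24), with an offset of 5 points (limma adjusted p = 0.0695) and when any 1 of 6 libraries was left out, Sham-OVA replicates 2, 3 and 7 and Sham replicates 3, 6 and 7 (limma adjusted p from 0.0548 to 0.096). The principal start (69289329 to 69290003), which lies 636 kb further along, held 0.489% ± 0.236 in Sham and 0.747% ± 0.142 in Sham-OVA (limma adjusted p = 0.105), and 0.507% ± 0.28 in PM and 0.705% ± 0.344 in PM-OVA (limma adjusted p = 0.212). It passed the test in Sham without Sham replicate 2 (limma adjusted p = 0.0346) and with only the groups of the contrast in the fit (limma adjusted p = 0.0426). Centring raised its differences to 0.642 points in Sham and 0.923 in PM offspring, both past the test (limma adjusted p = 0.0258 and 0.00106).

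**Figure D5:**
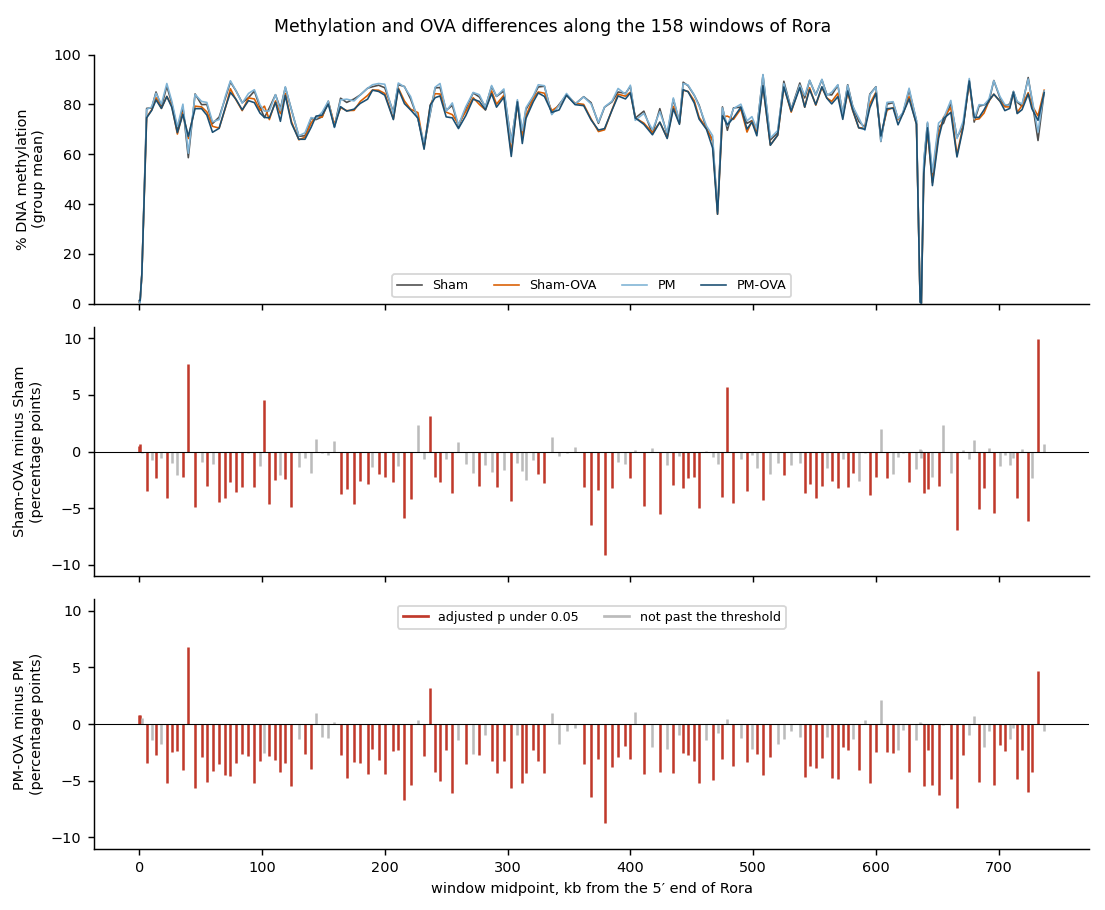
Group mean %DNAm of the 158 Rora windows (top) and the OVA difference of each window in percentage points in Sham (middle) and PM offspring (bottom), against the distance of the window midpoint from the 5′ end of the gene in kb. Red lines mark windows with a limma adjusted p under 0.05 (80 in Sham and 109 in PM offspring) and grey lines the others. Falls are spread over the gene, and the tallest rises lie at 40.0 and 732 kb.

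The starting level of a window went with how it moved. Of the 242 member windows, 26 were under 10% in Sham (7 of Gata3, 6 of Bcl6, 5 of Rora, 4 of Maf, 2 of Tbx21 and 1 each of Irf4 and Prdm1). In these windows no OVA difference was larger than 2.21 points in Sham or 1.63 points in PM offspring. The test was passed by 6 of 26 in each, near the share over all windows under 10% (3870 of 17905 in Sham and 3572 in PM offspring). Of these, 5 rose in Sham (19.2%, against 18.9% of all windows under 10%) and 4 in PM offspring (15.4%, against 16.6%), which is near the share over all windows. Of the 172 windows above 70%, 83 fell (48.3%, against 27.3% of all windows above 70%) and 5 rose (2.91%, against 9.06%) in Sham, and 112 fell (65.1%, against 42.6%) and 1 rose (0.581%, against 5.57%) in PM offspring. Outside Rora, 34.2% and 44.7% of 38 such windows fell. Falls at high levels were thus common over the whole table. The 44 windows between these levels held 1 of the 2 DMRs in Sham and 2 of the 5 in PM offspring. The windows over the gene starts of Batf and Irf4 held 41.9% and 38.0% in Sham, and those over the gene and principal starts of the other genes 15.5% or less. The Irf4 window lies mostly upstream, with 86 bp inside the gene. Over all 20 windows with an annotated start the level ranged from 0.34 to 82.6%, with 46.2% and 48.5% at inner starts of Gata3.

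The libraries are whole tissue, so a change in the share of a cell type and a change within cells cannot be told apart in any of these values. Windows of cell type marker genes are given for this reason. Of all windows, 22.3% fell and 13.3% rose in Sham, and 34.8% and 9.26% in PM offspring. The share of rises lay above that of all windows in every list in both, though barely for the T cell list in PM offspring. Falls exceeded their share of all windows in the T cell and myeloid lists in both, and slightly in the B cell list in Sham. They lay below it in the epithelial and endothelial lists in both, and in the B cell list in PM offspring. For the T cell markers (8 of 8 genes measured, 42 windows), 14 windows fell (33.3%) and 7 rose (16.7%) in Sham and 16 fell (38.1%) and 4 rose (9.52%) in PM offspring, and the list mean ranged from 67.1 to 68.7% in Sham, 65.8 to 67.1% in Sham-OVA, 67.6 to 69.0% in PM and 65.8 to 67.5% in PM-OVA. B cell markers (5 of 6 genes, 68 windows) had 17 falls (25%) and 18 rises (26.5%) in Sham and 22 falls (32.4%) and 15 rises (22.1%) in PM offspring, with list means of 63.1 to 64.4%, 62.3 to 64.2%, 63.7 to 64.8% and 62.0 to 63.5% in the same order of groups. Within that list, both windows of Cd79b fell, with differences of -11.4 and -10 points for Sham and -13.9 and -10.9 for PM offspring. Pax5, with 52 of the windows, had 15 rises and 9 falls in Sham and 13 and 13 in PM offspring, with a rising DMR in each (differences of 12.7 and 13.4 points). Myeloid markers (6 of 6 genes, 39 windows) had 14 falls (35.9%) and 7 rises (17.9%) in Sham and 16 falls (41.0%) and 5 rises (12.8%) in PM offspring, with list means of 67.3 to 68.2%, 65.6 to 67.5%, 67.3 to 69.0% and 65.9 to 66.7%. Endothelial markers (6 of 6 genes, 130 windows) had 41 rises (31.5%) and 25 falls (19.2%) in Sham and 36 rises (27.7%) and 37 falls (28.5%) in PM offspring, with list means of 69.1 to 71.3%, 70.1 to 72.4%, 69.0 to 72% and 70.1 to 72%. Epithelial markers (6 of 6 genes, 44 windows) had 11 rises (25%) and 4 falls (9.09%), then 5 rises (11.4%) and 6 falls (13.6%), with list means of 55.2 to 57.5%, 56.1 to 57.5%, 55.9 to 57.5% and 55.8 to 57.0%. These counts depended on the scaling as well. With centred libraries PM offspring had 26 rises and 15 falls for the B cell list, 47 and 25 for the endothelial list, 13 and 4 for the epithelial list, 12 and 15 for the myeloid list and 7 and 12 for the T cell list. Sham offspring then had 23 and 16, 46 and 23, 18 and 4, 10 and 14 and 9 and 12 in the same order. The part of these markers in the member results was not tested. The table holds no expression, so the lung label was not checked against expressed markers.

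Maternal PM exposure left no detectable difference in the members. For PM against Sham without OVA, limma called 0 DMRs and 0 windows at an adjusted p under 0.05 (0% of all windows were DMRs), and 7 of 242 windows (2.89%) had an unadjusted p under 0.05, against 5.79% of all windows. The largest difference was 3.38 points, in the 3′ window of Rora described above. The smallest p belonged to an intronic Rora window (68800164 to 68805347), which held 73.5, 75.3 and 75.7% in Sham (lowest, median, highest) and 74.2, 77.3 and 78.0% in PM, with a limma adjusted p of 0.835. With OVA, the comparison of PM-OVA with Sham-OVA gave 0 DMRs (0% of all windows) and 0 windows by adjusted p in limma, and 18 windows (7.44%) at an unadjusted p under 0.05, against 5.96% of all windows. Of those 18 windows, 2 were higher and 16 lower in PM-OVA, and 12 were Rora windows. The smallest p was that of the Maf window from 115689406, at 88.5% ± 1.52 in Sham-OVA and 85.9% ± 1.23 in PM-OVA (limma adjusted p = 0.805).

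Whether OVA acted differently in PM and Sham offspring was tested by the interaction. limma called 0 member windows as DMRs (0% of all windows) or at an adjusted p under 0.05, and 21 windows (8.68%) had an unadjusted p under 0.05, against 7.4% of all windows. The smallest p was again that of the Maf window from 115689406, where OVA changed the mean by -0.163 points for Sham and by -3.95 for PM offspring, an interaction of -3.79 points (limma log2 ratio -0.48, SE 0.13; adjusted p = 0.551). The largest interaction, -7.08 points, was in a Rora window 102 kb into the gene, chosen after its values were seen, which went from 74.7% ± 2.37 to 79.3% ± 3.48 in Sham and from 77.3% ± 2.99 to 74.8% ± 4.42 in PM offspring (limma adjusted p of the interaction 0.57). The median interaction over the members was -0.648 points. The higher count of falls in PM than in Sham offspring was therefore not shown to be a difference between them at any single window.

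Related gene lists give the background for these 8 factors. Of 18 other regulators of lymphocyte fate, 17 had windows in the table (207 in all). They had 51 rises (24.6%, against 13.3% of all windows) and 41 falls (19.8%, against 22.3%) in Sham, and 40 rises (19.3%, against 9.26%) and 45 falls (21.7%, against 34.8%) in PM offspring, with 11 rising DMRs and 1 falling DMR in Sham and 7 and 1 in PM offspring. With centred libraries they had 61 rises and 32 falls in Sham and 74 rises and 30 falls in PM offspring, so the balance in PM offspring turned. The rising DMRs included 3 windows of Gfi1, a repressor that stabilises T helper 2 cells and ILC2s, in both kinds of offspring, with differences of up to 27.5 points in Sham and 22.9 in PM. Runx3, a partner of T-bet, had 5 in Sham and 3 in PM offspring, Hlx, another T helper 1 factor, had 2 and 1, and Tox had 1 and 0. The falling DMR was a window of Stat5b in both. For the signature cytokines (Il4, Il5, Il9, Il10, Il13, Il17a, Il21 and Ifng, 17 windows), 10 windows fell in Sham (58.8%, against 22.3% of all windows) and 13 in PM offspring (76.5%, against 34.8%), and 0 rose (against 13.3% and 9.26%). Centring left 9 falls in Sham and 10 in PM offspring, with 0 rises. Their list mean went from 75.2, 75.7 and 76.4% (lowest, median, highest) in Sham to 71.0, 72.9 and 74.4% in Sham-OVA, and from 75.8, 76.2 and 77.2% in PM to 72, 72.4 and 73.6% in PM-OVA, without overlap. Among the cytokines downstream of GATA3, all windows of Il4 (3) and Il13 (2) fell in both, with differences of -5.22 to -3.39 and -4.46 to -4.33 points in Sham. Of the 2 windows of Il5, 0 passed the test in Sham (-1.36 and -0.604 points) and 1 fell in PM offspring (differences of -3.56 and -1.24 points). Of the 2 windows of Ifng, the cytokine downstream of T-bet, 0 passed the test, with differences of 0.0351 and 0.0807 points in Sham and -0.888 and -1.11 in PM offspring. Falls in the list were not confined to Il4, Il13 and Il5. Of the 3 windows of Il21, 2 fell in Sham and 3 in PM offspring (to -4.97 and -6.42 points). In both kinds of offspring 1 of 2 windows of Il17a and 2 of 2 of Il10 fell.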

How the data were processed

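Lung DNA of 29 offspring was converted with NEBNext Enzymatic Methyl-seq. By the methods and the submitters' processing notes, the authors trimmed reads with Trim Galore, mapped them and called methylation with DRAGEN against GRCm38, and computed in SeqMonk the percent methylation of windows of 100 CpGs with at least 10 informative CpGs. The deposited table gives this percent for windows that overlap a gene. It holds neither counts nor coverage.

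Windows with at least 3 values in each group (259167 of 260686) were tested with limma 3.58.1 in R 4.3.3 on log2((percent + 1)/(100 - percent + 1)) over all 29 libraries in 4 groups, with Benjamini-Hochberg adjustment over all tested windows and no covariate. DMRs were windows with an adjusted p under 0.05 whose group means lay at least 10 percentage points apart. Starts, exons and transcripts were those of GENCODE M21, whose annotation of the principal transcript gave the principal start. Windows and sequences were read with Python 3.11.15, pandas 2.3.3 and pysam 0.24.0 from a C57BL/6J reference, whereas the animals were BALB/c. The study's library size covariate was not used here. The procedure was tested on simulated data.

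For each gene the named windows were the DMRs, those over the gene and principal starts and, in genes without a DMR, the window with the smallest p. For each comparison of maternal exposure, the named window was the 1 with the smallest p. Other windows named are said to be chosen after their values were seen. The members and gene lists were chosen with earlier results of these data known. The alternatives were untransformed percentages, another offset, centring of each library, group medians, other thresholds, a replicate block and leaving out each library. Leaving out together PM-OVA replicates 7 and 8, whose library names differ in form from the rest, and centring with the block, were added after seeing the data. Transcripts, spike-in DNA and intergenic windows were not used here.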

Additional observations from a re-analysis of the deposited data

Results flagged for a closer look

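In 12 of the 116 sets of libraries checked (4 groups in each of 21 named windows and 8 gene means, where chance flags about 1 in 20), the highest or lowest library lay far from the other libraries of its group. Most of these were in almost unmethylated start windows. At the distal Gata3 start, Sham-OVA replicate 4 held 9.02% against 6.24 to 7.1% in the other libraries of its group. At the principal Gata3 start, Sham replicate 5 held 5.2% (others 0.3 to 2.23%) and PM replicate 7 held 3.46% (others 0.436 to 1.26%). The Tbx21 start was at 3.98% in Sham replicate 7 (others 0.781 to 1.58%). At the Rora starts, PM replicate 6 held 1.33% at the distal one (others 0.174 to 0.583%) and Sham replicate 2 held 0.973% at the principal one (others 0.282 to 0.576%). The Bcl6 start was at 1.35% in Sham replicate 5 (others 0 to 0.459%). The Maf start was at 4.7% in Sham replicate 4 (others 0 to 1.2%) and at 1.01% in PM-OVA replicate 1 (others 0 to 0.341%). At the principal Prdm1 start, Sham-OVA replicate 5 held 1.52% (others 0.31 to 0.708%) and PM replicate 6 held 3.06% (others 0.472 to 0.805%).

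Only the Batf start combined such a library with a called difference of several points. Sham-OVA replicate 7 held 39.4% there, against 32 to 33.4% in the other 6 Sham-OVA libraries. Its value lay close to the lowest Sham library (39.5%), and the same library had the highest Batf gene mean of its group (63%). It was also the highest of its group in the gene means of Irf4 (51%) and Rora (75.3%) and in the cytokine list (74.4%). In the other member genes it was not.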

How the results depend on the processing

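Counts of member DMRs depended on where the minimum difference lay. For OVA in Sham offspring there were 2, 22 with a minimum of 5 points, 5 with group medians and 3 with centred libraries. For OVA in PM offspring there were 5, and 35 with a minimum of 5 points, 2 with centred libraries, 2 with PM-OVA replicates 7 and 8 left out, and 2 with centring and the replicate block together (the last 2 settings were chosen after seeing the data). Leaving out each library in turn gave 2 to 4 and 2 to 5 DMRs, with the lowest PM count without PM-OVA replicate 8 or PM replicate 6, and 100 to 120 and 136 to 146 windows past the test. An adjusted p under 0.000001 left 8 and 12 windows. Counts for maternal exposure and the interaction stayed at 0 DMRs in all settings. Samples with the same replicate number showed little common deviation (r from -0.0409 to 0.104 over 42 pairs, over 0.1 in 1). These numbers are those of the sample titles, which differ from the library names for some samples. Pairing by library name, or by a shared litter, was not tested. The replicate block gave 117 and 137 windows past the test, with 2 and 5 DMRs. It brought the distal Prdm1 start in PM offspring under the threshold (limma adjusted p = 0.0453). For the 42 named results, 1523 of 1554 alternatives kept direction and side of the threshold, 8 lost and 20 gained the call, and 3 turned. The Bcl6 start in PM offspring became 0.72 points with centring, with and without the block, and the principal Prdm1 start in PM offspring became 0.757 points with centring and the block, and the cause was not tested. Coverage is unknown here, so counting error could not be separated from the spread between libraries.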

Other observations

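The Prdm1 intronic window that rose after OVA had close counterparts elsewhere in the genome. Over the 29 libraries, genes whose windows followed it closely among 258261 windows included Ehd1 (Pearson r = 0.959), Ssh1 (r = 0.956), Dpysl2 (r = 0.951) and Ctdsp2 (r = 0.951), with 1 window counted per gene. Ehd1 acts in endosomal recycling, and Ssh1 is a phosphatase of the actin-severing protein cofilin. All of these windows were higher after OVA. In Ehd1 the rise was 15.2 points in Sham and 13.4 in PM offspring, from 56.4% in Sham. In Ctdsp2 it was 20.6 and 18.9 points, from 19.3% in Sham. These correlations describe a pattern that the OVA groups set, over libraries that share tissue and processing, and carry no test.

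Several regulators outside the 8 genes moved as well. Ahr, a ligand-activated factor of lung lymphoid and barrier cells, had 6 of 10 windows higher and 0 lower in both kinds of offspring, by up to 9.68 points in Sham and 8.58 in PM. Stat6, which carries the signal of interleukin 4 and 13, had 1 of 6 windows higher in each, by 9.08 points in Sham and 8.15 in PM. Stat4, which carries that of interleukin 12, had 2 rises and 3 falls among 20 windows in Sham, both below those shares. In PM offspring it had 2 and 8, near them. Nfil3, needed for innate lymphoid precursors, had 3 falls in Sham and 4 in PM offspring among 9 windows, with the lowest differences at -6.47 and -9.05 points. Il10 held the cytokine list's DMR in both kinds of offspring, a window that fell by 13.3 points in Sham and 10.9 in PM. With centred libraries its differences were -12.9 and -9.9 points, so that the list had 0 DMRs in PM offspring.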
